A study of Brassica rapa with 18 samples.

Results

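The 133 genes described here were expressed in mock-sprayed leaves of Brassica rapa and stood higher with methyl jasmonate (MeJA) at both 24 h and 72 h after spraying. They were chosen from 41018 Bra identifiers, among 42186 features in all, by their levels in CPM (a count divided by its library total, on the per-million scale). A gene was kept if its mean reached 0.5 CPM in at least 1 mock group and 5 CPM in MeJA leaves at 24 h and at 72 h, and if L was at least 1.5 at both times. L is log2((MeJA mean CPM + 0.5)/(mock mean CPM + 0.5)). The rises at 24 h and 72 h are therefore the reason for the choice and are given without a test; the libraries of 10 min were not used for it, except that a mock mean of 10 min could meet the low floor.

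All seedlings were wild type of the line R-o-18 (variety trilocularis), which is inbred, sprayed at an age of 10 days with 10 mL of liquid containing 0.1% Tween-20. In the MeJA groups the spray also held 50 µM MeJA, and in the mock groups it did not. Leaves were taken at 10 min, 24 h or 72 h, as 3 biological replicates per group, which gave 18 libraries of 13505607 to 17796115 counts. The labels' batch field names the time point, so each MeJA group was compared with the mock group of its own batch, and a comparison of times is also one of batches.

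Jasmonates are lipid-derived hormones of wounding and defence. In Arabidopsis thaliana, the amino acid conjugate of jasmonic acid is bound by the receptor COI1, JAZ repressor proteins are then degraded, and MYC transcription factors are released to act on their target genes. Those targets include genes of jasmonate synthesis, genes of the JAZ repressors themselves and, in the cabbage family, genes of glucosinolate synthesis. None of the 133 identifiers could be paired with a gene symbol, so no role is given to any of them, and leaf marker genes could not be looked up.

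The 133 genes took up far more of the messenger RNA 24 h after MeJA than at the other times. They held 0.974% ± 0.741 of all counts in MeJA leaves and 0.251% ± 0.00794 in mock leaves at 10 min (SD, n = 3 each). At 24 h they held 7.93% ± 1.30 with MeJA and 0.387% ± 0.0756 with mock, and at 72 h 1.34% ± 0.201 with MeJA and 0.203% ± 0.0277 with mock. In leaf RNA, more cells that use a gene and more RNA per cell cannot be told apart. The replicates were not alike in this sum: at 10 min it was 5683, 18294 and 5239.97 CPM in MeJA replicates 1, 2 and 3, against 2452.5 to 2599.9 CPM in mock. At 24 h it was lowest in MeJA replicate 2, at 64979.5 CPM against 82648 and 90244 CPM in replicates 1 and 3, and 105 of the 133 genes were lowest in that replicate. At 72 h, 103 genes were lowest in MeJA replicate 3. The counts of genes lowest in a replicate have no share over all features beside them and are not read as particular to the 133 genes.

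**Figure D1:**
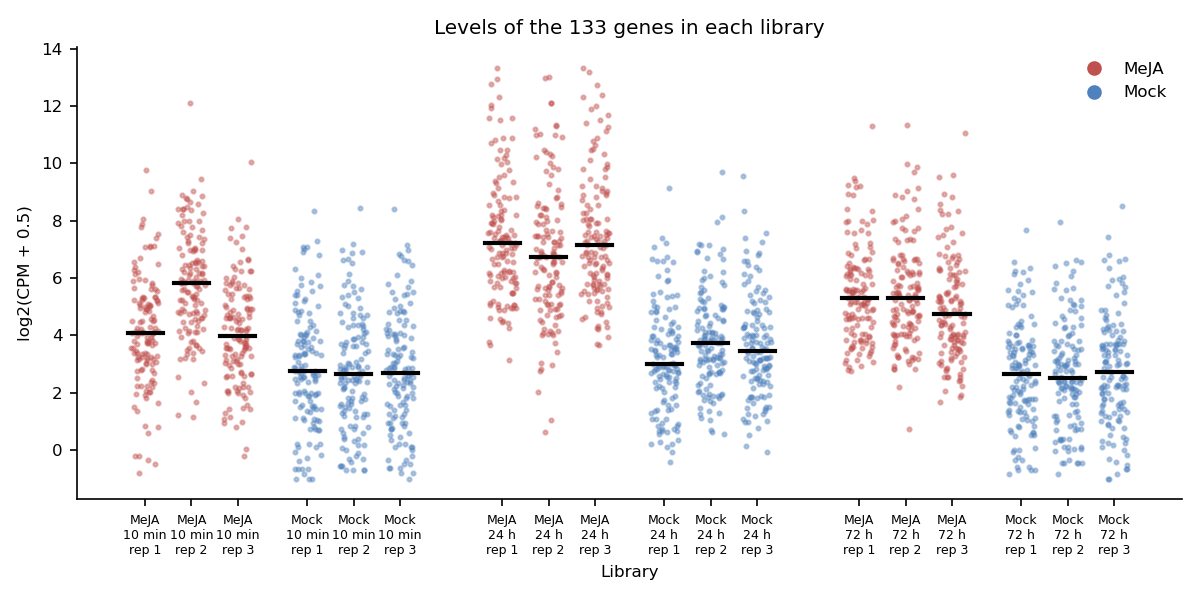
Level of each of the 133 genes in each library as log2(CPM + 0.5), with a point for each gene, MeJA in red, mock in blue and the median as a black line. The MeJA libraries of 24 h are the highest, and MeJA 10 min replicate 2 (median 56.8 CPM) lies above replicates 1 and 3 (16.4 and 15.3 CPM).

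A few genes supplied much of the RNA. In MeJA leaves at 24 h the levels ran from 9.93 to 9554 CPM with a median of 137.7 CPM; 19 genes stood at 1000 CPM or more and 32 under 50 CPM. The 6 most abundant held 45.0% of the summed CPM of all 133. In mock leaves at 24 h the median was 10.3 CPM, and the levels ran from 0.633 to 717 CPM. The median L of the 133 was 2.88 at 24 h (from 1.54 to 9.60) and 2.08 at 72 h (from 1.503 to 8.62). CPM by library totals place the median log2 fold change of all 26593 tested features at -0.13 at 24 h, against -0.01 after TMM scaling, so L at 24 h is slightly understated relative to the typical gene.

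Bra003526 was the most abundant of the 133 and also the highest in mock leaves. At 24 h it stood at 10342, 8028 and 10293 CPM in the MeJA libraries and at 569, 823 and 759 CPM in the mock libraries. At 72 h it stood at 2509, 2551 and 2126 CPM in MeJA leaves, against 202, 250.1 and 359.9 CPM in mock leaves. The groups did not overlap at either time, and the gene alone made up 17.8% of the summed CPM of the 133 in MeJA leaves at 72 h.

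Bra027987, Bra018969, Bra022161 and Bra010332 combined high abundance at 24 h with the highest L at 72 h, from 6.27 to 8.62. Bra027987 had 6963, 4397 and 6791 CPM in MeJA leaves, against 5.25, 6.16 and 14.1 CPM in mock leaves at 24 h. At 72 h it had 593, 831 and 492 CPM in MeJA leaves, against 0.506, 1.17 and 1.71 CPM in mock leaves. Its lowest MeJA library was thus far above its highest mock library at both times. Bra018969 had 7869, 8269 and 9282 CPM in MeJA leaves, against 15.4, 15.4 and 40.3 CPM in mock leaves at 24 h, and 473, 557 and 222 CPM in MeJA leaves, against 1.52, 0.821 and 0.887 CPM in mock leaves at 72 h. Bra010332 averaged 3155 ± 879 CPM in MeJA leaves, against 6.57 ± 5.23 CPM in mock leaves at 24 h, and 373 ± 83.9 and 1.73 ± 0.916 CPM at 72 h (SD, n = 3 each). A high L at 72 h did not mean a level close to that of 24 h: the MeJA level at 72 h was 4.92% of that at 24 h for Bra018969 and 3.31% for Bra022161.

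Other genes had a higher level in mock leaves and a lower L. Bra013123 had 1151, 1913 and 2212 CPM in MeJA leaves, against 169.5, 248 and 325 CPM in mock leaves at 24 h. Bra018940 had 1424, 1295 and 1453 CPM in MeJA leaves, against 149, 276 and 188 CPM in mock leaves at 24 h, and 601, 452 and 381 CPM in MeJA leaves, against 94.8, 94.8 and 95.9 CPM in mock leaves at 72 h. For these 2 genes the MeJA and mock libraries of 24 h did not overlap. At 5 CPM or more in every mock group were 65 of the 133 genes, and under 5 CPM in every mock group were 31.

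The label "expressed" holds for most of the genes but not equally for all. The floor of 0.5 CPM was met in all 3 mock groups by 122 genes, in 2 groups by 5 and in 1 group by 6. These 6, Bra001453, Bra003263, Bra005917, Bra007947, Bra008024 and Bra008025, met it at 24 h only, with 0.633 to 3.50 CPM in mock leaves of 24 h. They were listed by this floor after their values were seen. Their mock level at 24 h was 0.220% to 1.096% of their MeJA level at 24 h, where the median over the 133 genes was 12.6%. The mock level was highest at 24 h for 104 of the 133 genes, at 10 min for 24 and at 72 h for 5. In 105 genes it was lowest in replicate 1 of the mock libraries of 24 h. Shares over all features are not given for these counts, so they are not read as particular to the 133 genes.

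At the edge of the rule, Bra040651 and Bra034941 were just inside with an L at 72 h of 1.503 and 1.505, and Bra022254 and Bra022802 just outside with 1.497 and 1.494. Of the 16164 Bra genes that met the CPM floors, 346 had an L of at least 1.5 at 24 h and 172 at 72 h. When 1 of the 18 libraries was left out, the rule found 121 to 170 genes, and 93 of the 133 were found every time. The libraries of 10 min hardly enter the rule, and leaving out any of them returned the same 133 genes. The range therefore comes from the libraries of 24 h and 72 h.

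Most of the 133 genes had a lower L at 72 h than at 24 h. The difference of L between 72 h and 24 h had a median of -0.87 and ran from -4.78 to 1.102. In 40 genes L changed by at most 0.5 between the times, in 63 it was lower at 72 h by 0.5 to 2, in 24 by more than 2, and in 6 it was higher at 72 h by more than 0.5. The MeJA level at 72 h had a median of 30.5% of that at 24 h, with quartiles of 17.5% and 51.4%, and it was above that of 24 h in 4 genes. Of the 6 genes with L higher by more than 0.5, Bra003850, Bra014510 and Bra011761 had overlapping MeJA and mock libraries at 24 h. All these are values of the contrasts that chose the genes and carry no test.

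**Figure D2:**
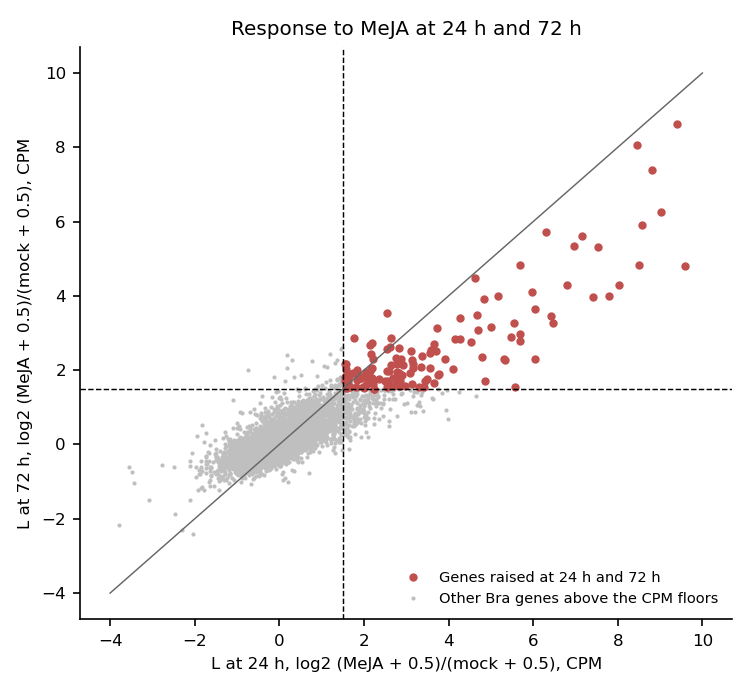
L at 72 h against L at 24 h for the 16164 Bra genes above the CPM floors, with the 133 genes in red, the limits of 1.5 as dashed lines and equality as a solid line. Most red points lie below the line of equality, and 19 lie above it.

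The 24 genes whose L was lower at 72 h by more than 2 had a median L of 6.05 at 24 h. This was the highest median of these 4 classes. The rule holds L at 72 h at 1.5 or more, so such a fall requires a high L at 24 h. Nothing is read from this median. Over the 3 mock groups, the median mock level of the 24 genes was 3.80 CPM. It was 3.66 CPM for the genes higher in L by more than 0.5. For those changed by at most 0.5 it was 15.0 CPM, and for those lower by 0.5 to 2 it was 7.29 CPM. Bra001454 had 3047, 2590.3 and 3803 CPM in MeJA leaves, against 1.102, 2.28 and 7.27 CPM in mock leaves at 24 h. At 72 h it had 30.0, 33.3 and 20.1 CPM in MeJA leaves, against 0.450, 0.235 and 0.824 CPM in mock leaves. Its MeJA level at 72 h was thus 0.883% of that at 24 h, the lowest share of the 133, while the groups still did not overlap. Bra035320 had 769, 248 and 704 CPM in MeJA leaves, against 9.01, 15.3 and 10.2 CPM in mock leaves at 24 h, and 26.5, 29.9 and 19.3 CPM in MeJA leaves, against 8.82, 8.09 and 7.73 CPM in mock leaves at 72 h. Bra018970 and Bra009238 had MeJA levels at 72 h of 2.59% and 2.18% of those at 24 h. Bra020470, the fifth most abundant gene at 24 h, also had a far lower MeJA level at 72 h, with 3903 ± 1366 CPM in MeJA leaves, against 14.4 ± 13.8 CPM in mock leaves at 24 h, and 85.3 ± 16.6 and 3.90 ± 4.41 CPM at 72 h (SD, n = 3 each).

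Among the genes with a higher L at 72 h, Bra015238 stood at 51.5, 42.2 and 45.9 CPM in MeJA leaves, against 10.8, 15.0 and 20.0 CPM in mock leaves at 24 h. At 72 h it stood at 28.8, 22.6 and 14.7 CPM in MeJA leaves, against 4.61, 4.57 and 4.24 CPM in mock leaves. Its level with MeJA was lower at 72 h than at 24 h, and its level with mock was lower by a larger factor, so that L was 1.58 at 24 h and 2.18 at 72 h. Bra026124 had an MeJA level of 10.8 ± 3.01 CPM at 24 h and 11.1 ± 5.36 CPM at 72 h, and a mock level of 3.33 ± 1.17 and 2.101 ± 1.71 CPM (SD, n = 3 each).

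In 8 of the 133 genes the MeJA and mock libraries overlapped, although the means met the rule, so the label does not hold for them in every replicate. They were Bra011761, Bra020713, Bra018998, Bra037506, Bra003850 and Bra014510, with overlap at 24 h, and Bra030917 and Bra040651, with overlap at 72 h; Bra011761 and Bra020713 overlapped at both times. Bra014510 had 44.4, 1.58 and 36.2 CPM in MeJA leaves, against 0.583, 10.7 and 1.53 CPM in mock leaves at 24 h. At 72 h it had 35.5, 4.08 and 2.73 CPM in MeJA leaves, against 1.80, 0.0586 and 0.380 CPM in mock leaves. MeJA replicate 2 of 24 h was thus below mock replicate 2 and near mock replicate 3, and a single MeJA library carried most of the mean at 72 h. Bra003850, whose L was 1.75 at 24 h and 2.86 at 72 h, had 31.5, 10.3 and 46.4 CPM in MeJA leaves, against 2.46, 13.4 and 9.21 CPM in mock leaves at 24 h. Bra011761 had 32.3, 1.06 and 19.1 CPM in MeJA leaves, against 1.102, 7.27 and 2.34 CPM in mock leaves at 24 h. The same libraries were high or low in most of these genes. For 6 of the 8 (all but Bra018998 and Bra040651), MeJA 24 h replicate 2 was under 50% of the mean of replicates 1 and 3 and MeJA 72 h replicate 1 was over 2-fold that of replicates 2 and 3. No other gene of the 133 showed both, 23 showed the first and 10 the second; the first held for 17.3% of the 133 and for 5.17% of all tested features. These genes were singled out after their values were seen. An overlap at 24 h itself needs a low MeJA library or a high mock library, so the first pattern is partly set by the choice. No share over all features is given for the second pattern or for both together.

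Every MeJA library was above every mock library for 127 of the 133 genes at 24 h and for 129 at 72 h. The shares over all tested features were 14.1% and 19.2%, but these contrasts chose the 133 genes, so nothing is read from the counts.

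**Figure D3:**
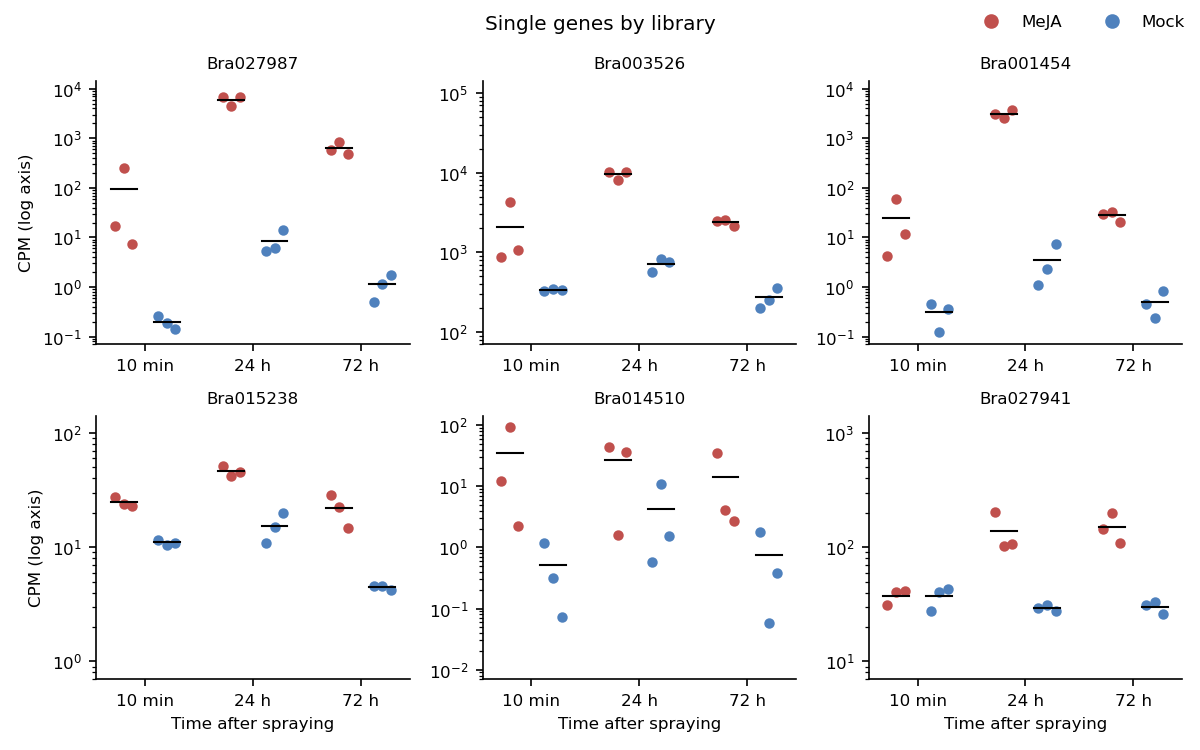
CPM of 6 genes in each library on log axes, with a point for each library, the mean as a line, MeJA in red and mock in blue. Bra027987 and Bra001454 are at least 10-fold apart between groups at every time by their means, Bra014510 overlaps at 24 h, and Bra027941 does not separate the groups at 10 min.

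The comparison of MeJA with mock at 10 min was not used to choose the genes. Of the 133 genes, 103 were higher with MeJA at 10 min and 0 lower (edgeR quasi-likelihood test on all 18 libraries, Benjamini-Hochberg adjusted p under 0.05), which is 77.4% of them. Over all 26593 tested features, 4.69% were called higher and 2.43% lower. The median log2 fold change was 1.87 over the 133 genes, all of which were tested, and -0.01 over all tested features. At an unadjusted p under 0.05, 122 of the 133 were higher and 0 lower, where 12.3% of all tested features were higher. DESeq2 called 112 of the 133 higher and 0 lower at an adjusted p under 0.05, where it called 5.72% of all features higher. Every MeJA library was above every mock library for 114 of the 133, or 85.7%, against 20.2% of all features.

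The size of this early difference rested largely on MeJA replicate 2. In that library the genes stood at a median of 2.95-fold their mean in replicates 1 and 3, where the median over all tested features was 0.993. It was the highest of the 3 MeJA libraries for 124 of the 133 genes, against 35.1% of all tested features. Identifiers starting with ENSRNA took 4.31% of the counts in it, against 1.35% and 1.77% in MeJA replicates 1 and 3 and 1.87% to 3.00% in the mock libraries of 10 min; the part of this in the result was not tested. Without MeJA replicate 2, 53 of the 133 genes were called higher and 0 lower, all 53 among the 103, where 1.24% of all features were called higher. The median log2 fold change over all 133 was then 1.15. MeJA replicates 1 and 3 were both above every mock library for 114 genes, or 85.7%, against 25.7% of all features.

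The count also depended on the mock libraries. It was 46 without mock replicate 2 and 52 without mock replicate 3, at median log2 fold changes of 1.86 and 1.85, where the share of all tested features called higher was 1.02% and 1.24%. Mock replicates 2 and 3 of 10 min were the most alike of all 18 replicate pairs, with chi-square per degree of freedom at 1.49 over genes with at least 10 counts in the pair, against 4.90 for the next pair. When they were summed into 1 library, a choice made after the data were seen, 61 genes were called higher, against 1.61% of all features. With the 6 libraries of 10 min alone in the fit, 67 genes were called higher, against 3.64% of all features. In the fit of all libraries and in each of the 6 fits that left out 1 library of 10 min, 44 genes were called higher, against 0.895% of all features.

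**Figure D4:**
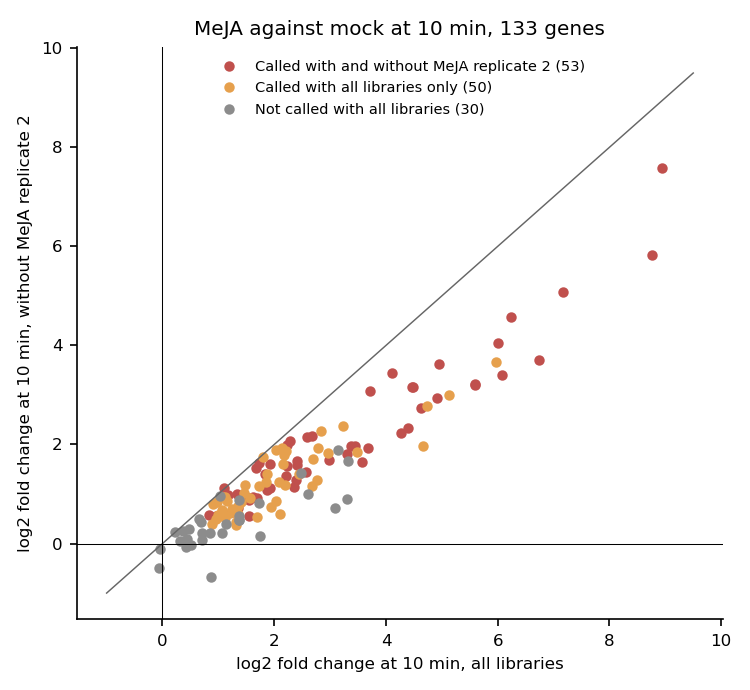
Log2 fold change of MeJA over mock at 10 min for the 133 genes, without MeJA replicate 2 against all libraries, with equality as a solid line. Nearly all points lie below the line, and 53 genes (red) were called in both fits, 50 (orange) with all libraries only and 30 (grey) not with all libraries.

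The 4 largest rises at 10 min were those of genes with means of 0.0850 to 1.07 CPM in mock leaves of that time. The same genes stood at means of 3.50 to 11.5 CPM in mock leaves at 24 h. A fold over so low a mock level is large even for a modest MeJA level. Bra010320 had 18.3, 399.7 and 55.6 CPM in MeJA leaves, against 0.653, 1.31 and 1.15 CPM in mock leaves at 10 min. MeJA replicate 2 was the highest by far, and the other MeJA libraries were also well above mock. Its log2 fold change was 7.17 (SE 0.93; edgeR adjusted p = 0.00122) and 5.08 without MeJA replicate 2 (adjusted p = 0.000101). Bra027987 had 17.2, 256 and 7.48 CPM in MeJA leaves, against 0.261, 0.187 and 0.144 CPM in mock leaves. The fitted log2 fold change was 8.76 (SE 1.35; adjusted p = 0.00249 by edgeR), or 5.82 without MeJA replicate 2. Bra022161 had 11.2, 330.1 and 18.2 CPM in MeJA leaves, against 0.588, 1.18 and 1.44 CPM in mock leaves. Its log2 fold change was 6.74 (SE 1.0999; edgeR adjusted p = 0.00318) and 3.71 without MeJA replicate 2. Bra001453, the gene with the largest fold at this time, had 7.81, 110.4 and 30.8 CPM in MeJA leaves, against 0.131, 0.124 and 0 CPM in mock leaves. The calls of these 4 genes held in all 13 alternatives.

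Other genes named above for their levels at 24 h or 72 h were also higher at 10 min. Bra003526 had 869, 4347 and 1059.9 CPM in MeJA leaves, against 325, 348 and 339.5 CPM in mock leaves. The fitted log2 fold change was 2.56 (SE 0.43; adjusted p = 0.00367 by edgeR), or 1.44 without MeJA replicate 2. Bra018969, Bra010332, Bra001454, Bra018970 and Bra035320 were called higher with log2 fold changes of 6.07, 6.001, 6.24, 4.39 and 3.57, which were 3.40, 4.05, 4.57, 2.33 and 1.64 without MeJA replicate 2, where each was still called. Bra020470 was not called with all libraries, at 3.40, 27.2 and 9.63 CPM in MeJA leaves, against 2.81, 1.93 and 2.15 CPM in mock leaves (log2 fold change 2.48; edgeR adjusted p = 0.0907, from 0.0486 by DESeq2 to 0.486 over the alternatives).

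Some of the smaller early rises were called without MeJA replicate 2 as well, and those of Bra015238 and Bra013123 kept nearly the same size. Bra015238 had 27.5, 24.0 and 23.1 CPM in MeJA leaves, against 11.6, 10.5 and 11.0 CPM in mock leaves at 10 min, without overlap and with replicate 2 in the middle. Its log2 fold change was 1.102 (SE 0.20; edgeR adjusted p = 0.00594) and 1.13 without MeJA replicate 2. Bra013123 had 519.6, 473 and 263 CPM in MeJA leaves, against 134, 117 and 108 CPM in mock leaves. The fitted log2 fold change was 1.73 (SE 0.33; adjusted p = 0.00626 by edgeR), or 1.63 without MeJA replicate 2. Bra034180 had the smallest fold among the called genes, at 190.1 ± 52.7 CPM in MeJA leaves, against 102 ± 7.13 CPM in mock leaves (SD, n = 3 each), a log2 fold change of 0.83 (adjusted p = 0.00548 by edgeR), or 0.58 without MeJA replicate 2, where it was called too.

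The calls of 10 other named genes at 10 min were lost in single alternatives. Bra003850, Bra014510, Bra026124, Bra009238, Bra018940, Bra027940, Bra004744, Bra040826, Bra040651 and Bra034941 were no longer called in each of 3 fits, which left out MeJA replicate 2, mock replicate 2 or mock replicate 3. Without mock replicate 1 the calls of Bra014510, Bra009238, Bra018940, Bra040826 and Bra040651 were lost too, and without MeJA replicate 1 that of Bra026124. Bra018940, at 187, 706 and 213 CPM in MeJA leaves, against 134, 146 and 143 CPM in mock leaves, was abundant in mock leaves and stood far apart in 1 MeJA library: its log2 fold change was 1.32 with all libraries and 0.43 without MeJA replicate 2. The log2 fold changes without MeJA replicate 2 were 2.78 for Bra003850 (4.73 with all libraries), 3.66 for Bra014510 (5.98), 1.28 for Bra009238 (2.76), 1.23 for Bra040651 (1.86), 0.50 for Bra004744 (0.95) and 0.40 for Bra040826 (0.89).

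The other 30 of the 133 genes were not called at 10 min, with log2 fold changes from -0.06 to 3.32 and a median of 0.95. They had a median L of 2.89 at 24 h and 2.01 at 72 h, and the 103 called genes had medians of 2.88 and 2.17. In 8 genes L at 10 min was under 0.5. Bra027941, picked from these after its values were seen, had 31.0, 40.6 and 41.3 CPM in MeJA leaves, against 27.7, 40.4 and 43.0 CPM in mock leaves at 10 min, where the groups overlapped. At 24 h it had 204, 102 and 107 CPM in MeJA leaves, against 29.5, 31.1 and 27.6 CPM in mock leaves, and at 72 h 145, 199 and 109.6 CPM in MeJA leaves, against 31.0, 33.1 and 26.0 CPM in mock leaves. Bra037958, picked in the same way, had 29.6, 65.2 and 29.6 CPM in MeJA leaves, against 34.9, 25.6 and 27.8 CPM in mock leaves at 10 min, and 3127 ± 1842 and 109.7 ± 26.4 CPM at 24 h (SD, n = 3 each).

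The early level was not a fixed share of the later one. Each MeJA library of 10 min was taken separately. Its excess over the mock mean of 10 min was divided by the MeJA mean minus the mock mean at 24 h. The median over the 133 genes was 5.57% for replicate 1 of 10 min (quartiles 1.45% and 28.0%). It was 41.3% for replicate 2 (17.3% and 67.4%) and 7.36% for replicate 3 (2.57% and 14.9%). The MeJA mean was highest at 24 h for 126 genes, at 10 min for 5 and at 72 h for 2. With MeJA 10 min replicate 2 left out, it was highest at 10 min for 1 gene. Across the 133 genes, L at 10 min and L at 24 h had a Spearman rho of 0.50 and a Pearson r of 0.68. These were 0.25 and 0.51 with MeJA 10 min replicate 2 left out. All genes of a time share its libraries, so this describes these libraries and has no test.

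Genes that met the limit on L at 24 h but had an L under 0.5 at 72 h gave a point of comparison. Genes with an L from 0.5 to under 1.5 at 72 h, which lie nearer to the 133, were left out of it. The comparison set was 40 Bra genes with an L of at least 1.5 at 24 h and under 0.5 at 72 h. Each met the same floor in mock and had at least 5 CPM in MeJA leaves at 24 h, with no floor at 72 h. Of the 40, 10 (25.0%) were called higher at 10 min, and 1 (2.50%) without MeJA replicate 2. The shares over all tested features were 4.69% and 1.24%. The median log2 fold change at 10 min was 1.87 over the 133 genes and 0.54 over the 40, and without that library it was 1.15 over the 133 and 0.17 over the 40. The 133 genes also had a higher L at 24 h, with a median of 2.88 against 1.78 for the 40, and a higher level in MeJA leaves at 24 h, with a median of 137.7 CPM against 23.8 CPM. The part of these differences in the values of 10 min was not tested. The difference between these sets was not tested. Only 3 Bra genes met both limits on L and both MeJA floors while staying under 0.5 CPM in every mock group. All 3 were called higher at 10 min, and 1 of them without MeJA replicate 2. For these too, the shares over all tested features are 4.69% and 1.24%.

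Members of the list often carried consecutive identifier numbers. There were 12 runs of consecutive numbers, which held 26 of the 133 genes, or 19.5%. Counting both sides of each gene, 28 of 266 neighbouring identifiers were themselves members, or 10.5%, where members made up 0.324% of all Bra identifiers and 0.823% of those above the CPM floors. The files give no positions, and whether the genes of a run are copies of each other was not tested. The counting of reads that near-identical copies share is not given in the sources used here. If some are such copies, their levels may be split between them.

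The longest run held 4 genes, Bra018940 to Bra018943, which were looked at for this reason after their values were seen. Bra018942 had 2884, 2064 and 3325 CPM in MeJA leaves, against 27.5, 39.1 and 37.2 CPM in mock leaves at 24 h, and an L of 6.30 at 24 h and 5.71 at 72 h. Bra018941 had 738, 530.0 and 890.1 CPM in MeJA leaves, against 61.2, 54.0 and 55.5 CPM in mock leaves at 24 h, and an L of 3.65 and 2.71. Bra018943 was far lower, with 29.4, 41.8 and 43.2 CPM in MeJA leaves, against 6.87, 2.77 and 4.40 CPM in mock leaves. At 10 min Bra018942 and Bra018941 were called higher in the fit of all libraries and without MeJA replicate 2 (log2 fold changes of 4.27 and 1.93, and of 2.23 and 1.13), Bra018940 only in the first, and Bra018943 in neither, at 2.60, 3.59 and 1.93 CPM in MeJA leaves, against 1.70, 2.80 and 1.72 CPM in mock leaves.

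Other runs paired genes of like or unlike response. Bra010625 had an L of 1.16 at 10 min, 3.42 at 24 h and 1.55 at 72 h, close to the 1.12, 3.45 and 1.72 of Bra010626, although Bra010626 averaged 417 CPM and Bra010625 105.9 CPM with MeJA at 24 h. Bra030385 and Bra030386 had an L of 5.01 and 4.80 at 24 h. In contrast, Bra004770 had an L of 5.69 and Bra004771 of 1.54 at 24 h, with 2.80 and 1.81 at 72 h, and the neighbours Bra027940 and Bra027941 had an L of 0.98 and 0.02 at 10 min. Bra027940 stood at 263, 290.1 and 217 CPM in MeJA leaves, against 156, 120.5 and 114 CPM in mock leaves at 10 min, without overlap.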

How the data were processed

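Leaf RNA of 18 libraries was deposited as a single table of whole-number read counts, 1 per gene and library, with no scaling to be seen in the values. In the submitters' processing notes edgeR, HTSeq, TopHat2 and FastQC appear, with no version and no role. What genome build, annotation and strand setting served is not given in the sources used here. Library totals were 13505607 to 17796115 counts, and 0 value columns were left unused. Only 1 of 42186 identifiers, and none of the 133 genes, matched the 51589 genes that RefSeq lists for assembly CAAS_Brap_v3.01, so the planned gene lists and tissue markers could not be filled and no sequence is shown.

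CPM were counts divided by the library total. Tests used edgeR 4.0.16 in R 4.3.3: filterByExpr on the 6 groups (26593 features left), TMM scaling, 1 quasi-likelihood fit of 6 group means over 18 libraries, and calls where the p adjusted by Benjamini-Hochberg was under 0.05. These fold changes are on the TMM scale, while CPM and L are on library totals. The SE of a log2 fold change came from it and its F statistic. DESeq2 1.42.0 was an alternative; others concerned scaling, filter, libraries in the fit, a replicate block, left-out libraries and the limits of the rule. Replicate pairs were compared by chi-square, and none agreed within sampling noise.

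The members, lists and tests were chosen with earlier results of these data known. Named genes are those with the highest MeJA level at 24 h (6), the highest L at 72 h (4), the highest and lowest change of L (4 each), the highest mock level (4), the largest and smallest folds called at 10 min (4 each) and the edge of the rule (2 on each side); any other gene is said to be chosen after its values were seen, or is named as part of a run of identifiers. An interval of counting error is not given. Values are shown by replicate, as a mean with its SD, as a mean alone or as L.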

Additional observations from a re-analysis of the deposited data

How the results depend on the processing

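The rule found 335 genes with L of at least 1 and 69 with L of at least 2; the other settings of the rule (TMM scaling, pseudocounts, floors) gave 101 to 154, and leaving out 1 library gave 121 to 170. At 10 min, 67 genes were higher when the fit held the libraries of 10 min alone (3.64% of all features) and 61 with mock replicates 2 and 3 summed into 1 library, an alternative added after the data were seen; the cause was not tested. Leaving out 1 library gave 46 to 116 genes higher, and the median log2 fold change ran from 1.15 (without MeJA replicate 2) to 2.15. Other settings gave 96 to 113 genes, and none of the settings gave a gene called lower. Apart from DESeq2, no share over all features is given for these other settings or for the replicate block. None is given for leaving out MeJA replicate 1, MeJA replicate 3 or mock replicate 1. The counts without such a share are not read as particular to the 133 genes. With the replicate block 103 genes were higher, at a median of 1.73; the correlations of the deviations of same-numbered MeJA and mock libraries were 0.08, -0.01 and 0.07, so the numbers were not taken to pair the samples, and MeJA replicate 2 correlated best with mock replicate 1 (0.04). Of 311 values of the 24 named members at 10 min, 256 kept their side of the threshold, 54 lost the call and 1 gained it, with no change of direction; 13 members kept their call, or lack of one, throughout. DESeq2 gave no adjusted p for Bra035320, which was left out there.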
